A study of Mus musculus with 6 samples.

Results

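The genes described here form a pair of chemokine axes: the CXCR3 receptor (Cxcr3) with its ligands Cxcl9, Cxcl10 and Cxcl11, and the CXCR6 receptor (Cxcr6) with its ligand Cxcl16. They were chosen by name from the feature tables of single-cell RNA-seq libraries, and 5 of the 6 genes had values among 31053 genes. Cxcl11 was not analysed here. In the GENCODE M21 annotation (GRCm38) Cxcl11 lies at chr5:92359544-92365485 on the minus strand and is typed as a polymorphic pseudogene.

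CXCL9, CXCL10 and CXCL11 are secreted chemokines that interferon gamma induces strongly in myeloid and stromal cells. They attract activated T cells and NK cells that carry CXCR3, a G protein-coupled receptor. CXCL16 is made as a membrane-bound protein that the proteases ADAM10 and ADAM17 can release, and its receptor CXCR6 marks tissue-resident and effector T cells. In tumours, dendritic cells and macrophages are known sources of these ligands.

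The libraries were droplet-based 3' libraries whose source is given as YUMM2.1, a mouse melanoma line driven by mutant Braf with a stabilized beta-catenin. The study made YUMM2.1 lines by lentiviral transduction with Empty vector or with wild-type Bmal1, the circadian transcription factor, on top of the native gene, and grew such lines as tumours in male C57BL/6 mice. The labels gave no age, treatment or time of collection and did not say whether these cells came from culture or tissue, but T, NK, myeloid and fibroblast cells were present in both libraries. Each group was 1 capture with 3 hashtagged replicates, Empty vector (h1, h7, h8) and Bmal1 WT (h3, h5, h9), so group and capture cannot be told apart. The labels did not say whether hashtags were separate animals, so p-values measure only the spread between hashtagged samples.

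After filtering, 3978 Empty vector cells (median 5094 unique molecular identifiers, UMIs, which count captured transcripts) and 2386 Bmal1 WT cells (median 7570.5) remained, and 3222 and 1621 of them carried exactly 1 hashtag. Replicates held between 326 and 1403 cells. The libraries shared 5 cell barcodes. Cells were placed in gates by UMIs of lineage markers that excluded the genes described here, and each gate was highest among the 6 main gates for its 3 check markers that the gate had not used. The label melanoma-like stands for cells gated on a marker list that included Sox10, Erbb3 and Cdh19, and it held 136 Empty vector and 314 Bmal1 WT cells. In sums over cells, a gene's level is given as CPM (UMIs of the gene scaled by all UMIs of the same cells), since the 3' assay counts transcripts and not their length. Levels of different genes were not tested against each other.

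Cxcl9 and Cxcl10 are neighbours on chromosome 5, both on the minus strand, at chr5:92321347-92328079 and chr5:92346638-92348889. The 250 bases before their start sites (RefSeq, GRCm38.p6, 5′ to 3′ along the gene) are shown because these ligands are textbook targets of interferon and NF-kB signalling, and because their levels differed in the cells described below. Capitals mark matches to the interferon-stimulated response element (GAAA, any 2 bases, GAAA) or to an NF-kB motif (GGGANTTCC) on either strand.
Cxcl9, chr5:92328080-92328329, minus strand: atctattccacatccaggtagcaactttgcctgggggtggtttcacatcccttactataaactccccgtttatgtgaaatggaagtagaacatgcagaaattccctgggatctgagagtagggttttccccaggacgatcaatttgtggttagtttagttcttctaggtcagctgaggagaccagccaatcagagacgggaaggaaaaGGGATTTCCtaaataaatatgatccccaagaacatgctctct
Cxcl10, chr5:92348890-92349139, minus strand: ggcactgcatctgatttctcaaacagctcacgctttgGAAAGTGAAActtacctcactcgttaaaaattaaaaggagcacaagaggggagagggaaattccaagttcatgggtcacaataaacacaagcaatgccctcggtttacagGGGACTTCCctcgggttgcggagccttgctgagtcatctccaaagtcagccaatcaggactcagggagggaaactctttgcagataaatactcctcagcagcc
The Cxcl10 window held the interferon element with its first base 213 bases before the start site and the NF-kB motif at 103 bases, and the Cxcl9 window held the NF-kB motif at 42 bases. Among 32851 windows of the same length, 2.98% held the interferon element and 1.43% the NF-kB motif. The remaining motif, the gamma-activated site (TTCNNNGAA, present in 7.02% of windows), was in neither window, and none of the 3 motifs was in the windows of Cxcr3 or Cxcr6. A match is a description of letters, and these data did not measure binding.

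Myeloid cells held most of the Cxcl9 and Cxcl16 UMIs of both libraries and most of the Cxcl10 UMIs of Empty vector. In Bmal1 WT the sources of Cxcl10 were more mixed. Of the Cxcl9 UMIs in a library, the macrophage or monocyte gate held 45.1% in Empty vector and 46.7% in Bmal1 WT, the dendritic gate held 26.1% and 22.3%, and the fibroblast gate held 15.2% and 14.5%. The macrophage or monocyte gate made up only 15.8% and 14.7% of cells. For Cxcl16, the dendritic gate led with 58.9% and 53.7% of UMIs from 9.70% and 9.22% of cells, and macrophages or monocytes followed with 26.4% and 33.6%. Cxcl10 came mostly from macrophages or monocytes in Empty vector (70.8%), whereas in Bmal1 WT this gate held 43.4% and fibroblasts held 30.1%. However, 2 of the 220 Bmal1 WT fibroblasts carried 50% of the 1197 fibroblast UMIs. Melanoma-like cells held 3.12% and 9.13% of Cxcl10 UMIs, T cells 4.43% and 6.01%, NK cells 3.47% and 4.50%, and dendritic cells 6.49% and 1.89%. Fibroblasts held only 0.313% and 1.41% of Cxcl16 UMIs.

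**Figure D1:**
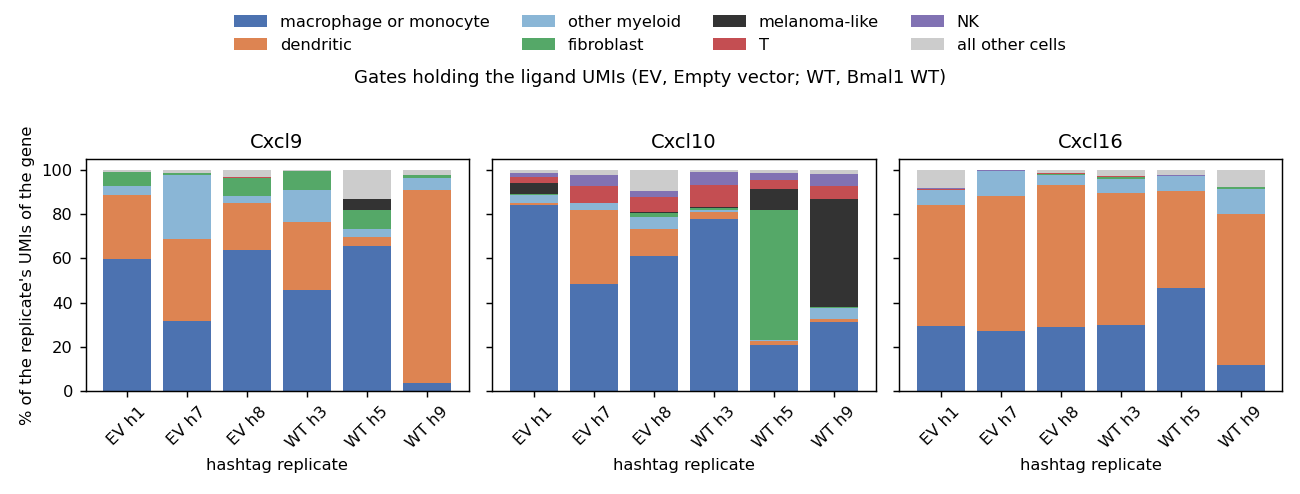
Share of each replicate's Cxcl9, Cxcl10 and Cxcl16 UMIs (y axis, percent) by gate, with 1 stacked bar per hashtag replicate (EV, Empty vector, and WT, Bmal1 WT). Myeloid gates filled most of every Cxcl16 bar, whereas fibroblasts held 59.2% of Cxcl10 in Bmal1 WT h5 and melanoma-like cells held 48.7% in Bmal1 WT h9.

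These shares varied between replicates. The dendritic gate held between 43.9% and 68.4% of Cxcl16 UMIs over the 6 replicates. For Cxcl9 its share ran from 4.04% to 87.1%, and for Cxcl10 the share of macrophages or monocytes ran from 21.0% to 84.3%. The fibroblast share of Cxcl9 ran from 0.619% to 8.67%, below its share in either library. Cells without a hashtag, which are in no replicate, held 366 of the 589 fibroblast Cxcl9 UMIs in Empty vector and 153 of 308 in Bmal1 WT. The extreme Cxcl10 shares rested on single cells. In Bmal1 WT h5, all 448 fibroblast UMIs of Cxcl10 lay in 1 of 10 cells, and in Bmal1 WT h9 a single melanoma-like cell held 150 of the gate's 153 UMIs.

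Cxcl9, the monokine induced by interferon gamma, was present in monocytes, macrophages, dendritic cells and fibroblasts and was near 0 in melanoma-like cells and lymphocytes. In the macrophage or monocyte gate it measured 136, 335 and 662 CPM in the Empty vector replicates h1, h7 and h8 and 222, 450 and 7.94 CPM in the Bmal1 WT replicates h3, h5 and h9. In the dendritic gate the corresponding values were 106, 268 and 261 CPM, and 183, 38.8 and 171 CPM. In fibroblasts with at least 10 cells per replicate, Empty vector h1 and h8 were at 165 and 465 CPM and the Bmal1 WT replicates at 226, 158 and 5.88 CPM. The groups overlapped in all 3 gates, and replicate h9 was lowest among macrophages and among fibroblasts. The macrophage or monocyte levels rested on few cells. There, 8 of 629 Empty vector cells held 50% of 1747 Cxcl9 UMIs, and 5 of 351 Bmal1 WT cells held 50% of 988. Within the macrophage or monocyte gate, the subset marked by C1q genes left out cells already marked by Arg1 or Nos2, or by Ace, Adgre4 or Treml4. These few cells had the highest Cxcl9 level of the subsets in both libraries. They were at 553 CPM in Empty vector (8 cells, 38 UMIs) and 1481 CPM in Bmal1 WT (19 cells), from all cells of each library. In Empty vector, monocytes with Ace, Adgre4 or Treml4 were close, at 457 CPM from 694 UMIs. In Bmal1 WT the C1q cells held 319 of the gate's 988 Cxcl9 UMIs. No replicate had 10 such cells, so this subset was not tested.

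Melanoma-like cells held 2 Cxcl9 UMIs in Empty vector and 42 in Bmal1 WT, of which 40 lay in 1 cell. Cxcl9 was higher in the macrophage or monocyte gate than in the melanoma-like gate by 6.88 ± 0.60 on the log2 scale (SE, higher in 5 of 5 replicates, edgeR quasi-likelihood test with the replicate as a block, adjusted p = 3.35e-06). All 3 ligands were called higher in that comparison, in which 69.4% of all tested genes were called and 22.7% were called higher. Against dendritic cells (49.5% of genes called, 20.3% higher and 29.1% lower) Cxcl9 differed by 0.55 ± 0.58 (edgeR adjusted p = 0.456), and against fibroblasts (52.3% called, 24.2% higher and 28.1% lower) by 0.44 ± 0.26 (adjusted p = 0.187), neither of which passed the test.

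In the fibroblast gate, markers of macrophages moved with Cxcl9 in 1 replicate. The summed level of Lyz2, Cd68 and Ms4a7 was 530 CPM in Empty vector h8, where Cxcl9 was highest, and between 0 and 27.6 CPM in the other replicates. In the 98 Empty vector fibroblasts without a hashtag, the same sum was 2.61 CPM, with 1 of the 3 markers at 0, and Cxcl9 was at 191 CPM from 366 UMIs. The part of these markers in the Cxcl9 level of fibroblasts was not tested. Cxcl9 was detected in 30.4% of fibroblasts of Empty vector (95% interval by the Clopper-Pearson method 22.9 to 38.8) and in 11.8% of those of Bmal1 WT (7.87 to 16.8), at median depths of 14951.5 and 19326.5 UMIs per cell. In T cells, which should lack it, the share was 0.491% and 0.314%, at median depths of 4640 and 6444 UMIs. These intervals cover counting error only.

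**Figure D2:**
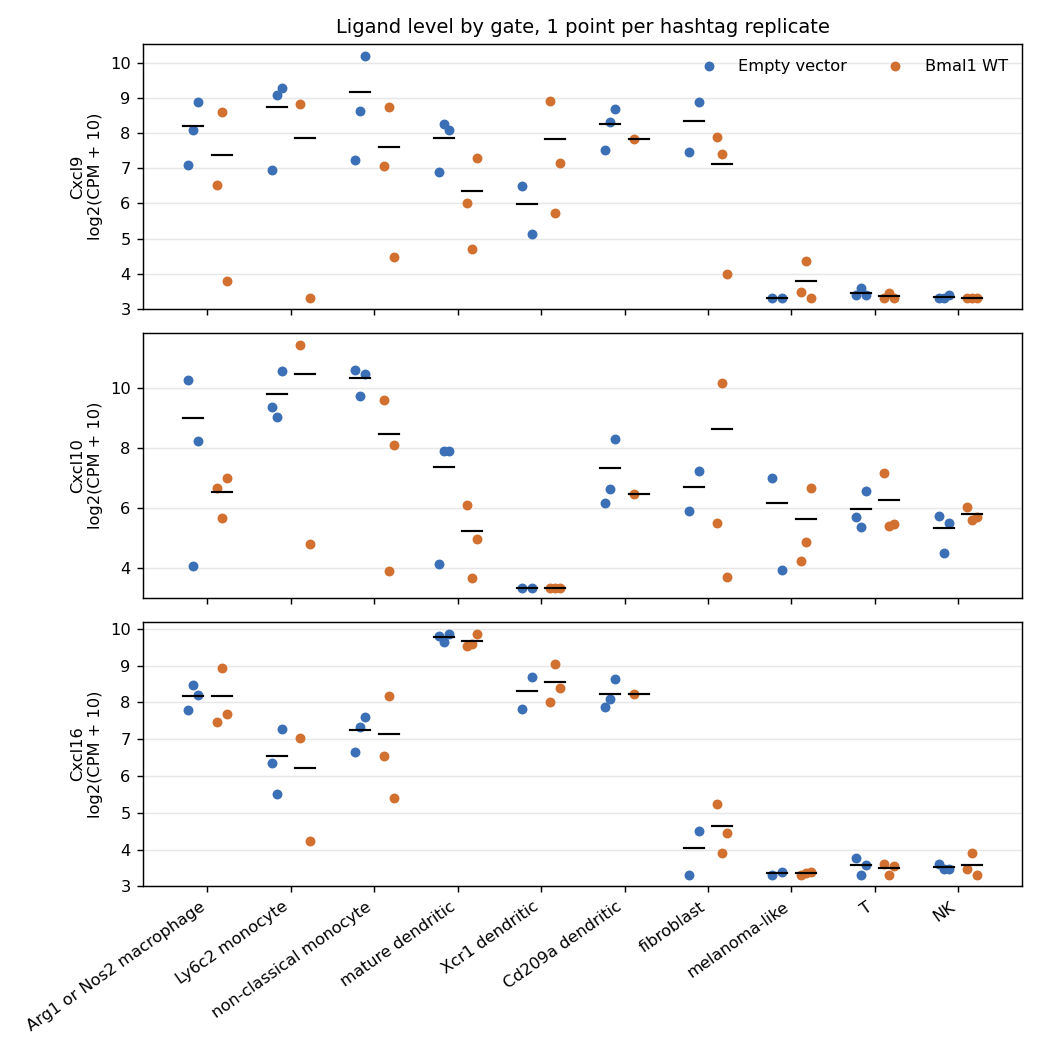
Level of Cxcl9, Cxcl10 and Cxcl16 (y axis, log2 of CPM plus 10) by gate, with 1 point per hashtag replicate of at least 10 cells and bars at the log2 of the mean CPM plus 10. Cxcl16 in mature dendritic cells lay between 727 and 925 CPM in all 6 replicates, whereas Cxcl10 spread from 17.5 to 2746 CPM in Ly6c2 monocytes.

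Among the subsets with 2 or more replicates in each group, Cxcl10 had its highest means in monocytes, and few cells carried it. In the macrophage or monocyte gate it measured 1202, 256 and 845 CPM in Empty vector h1, h7 and h8 and 670, 142 and 156 CPM in Bmal1 WT h3, h5 and h9. In the dendritic gate it measured 18.8, 120 and 197 CPM, and 31.3, 16.3 and 5.61 CPM. Every replicate was thus higher among macrophages or monocytes, by 3.37 ± 0.56 on the log2 scale (SE, 6 of 6 replicates, edgeR adjusted p = 4.44e-04). Within the gate, the mean over replicates was 1084 ± 1070 CPM in Ly6c2 monocytes (SD, n = 5), 802 ± 605 in non-classical monocytes with Ace, Adgre4 or Treml4 (n = 6) and 293 ± 459 in macrophages with Arg1 or Nos2 (n = 6).

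Of 5038 Cxcl10 UMIs in 629 Empty vector macrophages or monocytes, 14 cells held 50%, and of 1723 UMIs in 351 Bmal1 WT cells, 8 cells did. For Cxcl16 in the same gate those numbers were 39 and 17 cells, and for Cxcl9 8 and 5 cells. Xcr1 dendritic cells, the cross-presenting subset, had 1 Cxcl10 UMI in 45 Empty vector cells and none in 65 Bmal1 WT cells. A count of 0 there allows up to 4.62% of cells with a UMI and sets no limit on cells that express the gene. The same cells carried 75 and 291 Cxcl9 UMIs.

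Cxcl10 was called higher in macrophages or monocytes than in melanoma-like cells (3.79 ± 0.78 log2, SE, 5 of 5 replicates, edgeR adjusted p = 1.44e-03). Against fibroblasts the difference was 2.72 ± 1.03 (4 of 5 replicates, edgeR adjusted p = 0.0451), and this call was lost in 5 of 10 alternatives, among them leaving out the replicate block (1.14, adjusted p = 0.332), Empty vector h1 (adjusted p = 0.168), Empty vector h8 (0.103), Bmal1 WT h3 (0.166) or Bmal1 WT h9 (0.12). Unlike Cxcl9, Cxcl10 was also detected in lymphocytes. It was in 6.50% of T cells in Empty vector and 8.49% in Bmal1 WT, and in 4.28% and 8.37% of NK cells, where Cxcl9 was in 0.182% and 0%. The last value allows up to 0.739% of cells with a UMI, which is a limit on detection and not on expression. In macrophages or monocytes of Empty vector there were 5038 Cxcl10 and 1747 Cxcl9 UMIs, whereas T cells of that library had 315 and 4. The origin of the Cxcl10 UMIs in lymphocytes was not tested. The higher level in T than in NK cells (0.69 ± 0.22 log2, edgeR adjusted p = 0.0268) held in 3 of 6 replicates and was lost in 6 of 11 alternatives, among them leaving out the replicate block (0.72, adjusted p = 0.159), Empty vector h8 (adjusted p = 0.154) or Bmal1 WT h3 (0.146), and in Bmal1 WT 1 cell held 41.8% of the T-cell UMIs.

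Cxcl16, at chr11:70453983-70459984 on the minus strand, marked mature dendritic cells, the Ccr7, Fscn1 and Ccl22 state that migrates to lymph nodes. There it measured 886, 792 and 918 CPM in Empty vector h1, h7 and h8 and 727, 757 and 925 CPM in Bmal1 WT h3, h5 and h9. All other dendritic cells of the same replicates measured 173, 214 and 321 CPM, and 173, 377 and 334 CPM. The ranges did not overlap, and the difference was 1.72 ± 0.17 on the log2 scale (SE, 6 of 6 replicates, edgeR adjusted p = 2.17e-06), in a comparison in which 50.9% of genes were called, 18.2% higher and 32.7% lower.

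Cxcl16 was in 88.8% of mature dendritic cells in Empty vector (95% interval 83.1 to 93.1) and 87.6% in Bmal1 WT (79.8 to 93.2). With every cell thinned to 2000 UMIs, leaving out 22 and 27 shallower cells, the shares were 77.7% and 80.8%. Xcr1 and Cd209a dendritic cells measured 261 and 294 CPM in Empty vector and 327 and 279 CPM in Bmal1 WT, each from all cells of the library.

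Macrophages or monocytes had less Cxcl16 than dendritic cells, with 155, 256 and 223 CPM against 464, 396 and 582 CPM in Empty vector and 144, 419 and 95.3 CPM against 353, 555 and 494 CPM in Bmal1 WT. The difference was -1.26 ± 0.21 log2 (SE, lower in 6 of 6 replicates, edgeR adjusted p = 5.08e-04). They exceeded fibroblasts, which measured between 0 and 27.6 CPM, by 3.99 ± 0.48 (5 of 5 replicates, edgeR adjusted p = 3.63e-05). Melanoma-like cells held 5 and 3 Cxcl16 UMIs in Empty vector and Bmal1 WT, and macrophages or monocytes were higher by 9.39 ± 0.36 (5 of 5 replicates, edgeR adjusted p = 1.06e-08).

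The receptors were found mainly in T cells. The T gate held 75.5% of Cxcr6 UMIs in Empty vector and 84.2% in Bmal1 WT, and 57.1% and 48.1% of Cxcr3 UMIs. Cxcr6 lies at chr9:123806475-123811760 on the plus strand and Cxcr3 at chrX:101731535-101734269 on the minus strand. In T cells Cxcr6 measured 625, 387 and 309 CPM in Empty vector h1, h7 and h8 and 290, 227 and 307 CPM in Bmal1 WT h3, h5 and h9. In NK cells it measured 17.9, 25.2 and 24.9 CPM, and 8.24, 4.94 and 12.3 CPM, far below every T-cell value.

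Both receptors were called higher in T than in NK cells, a comparison in which 30.5% of genes were called and 19.4% were called higher. The difference was 4.45 ± 0.20 log2 for Cxcr6 (SE, 6 of 6 replicates, edgeR adjusted p = 9.44e-11) and 1.77 ± 0.18 for Cxcr3 (6 of 6 replicates, adjusted p = 1.14e-06). Cxcr3 measured 72.2, 76.4 and 57.5 CPM in Empty vector T cells and 74.1, 59.3 and 56.7 CPM in Bmal1 WT T cells, whereas NK cells lay between 14.4 and 28.9 CPM. Macrophages or monocytes, which should lack Cxcr6, had it in 1.27% (Empty vector) and 0.57% (Bmal1 WT) of cells at median depths of 7241 and 10219 UMIs, against 55.8% and 56.6% of T cells.

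**Figure D3:**
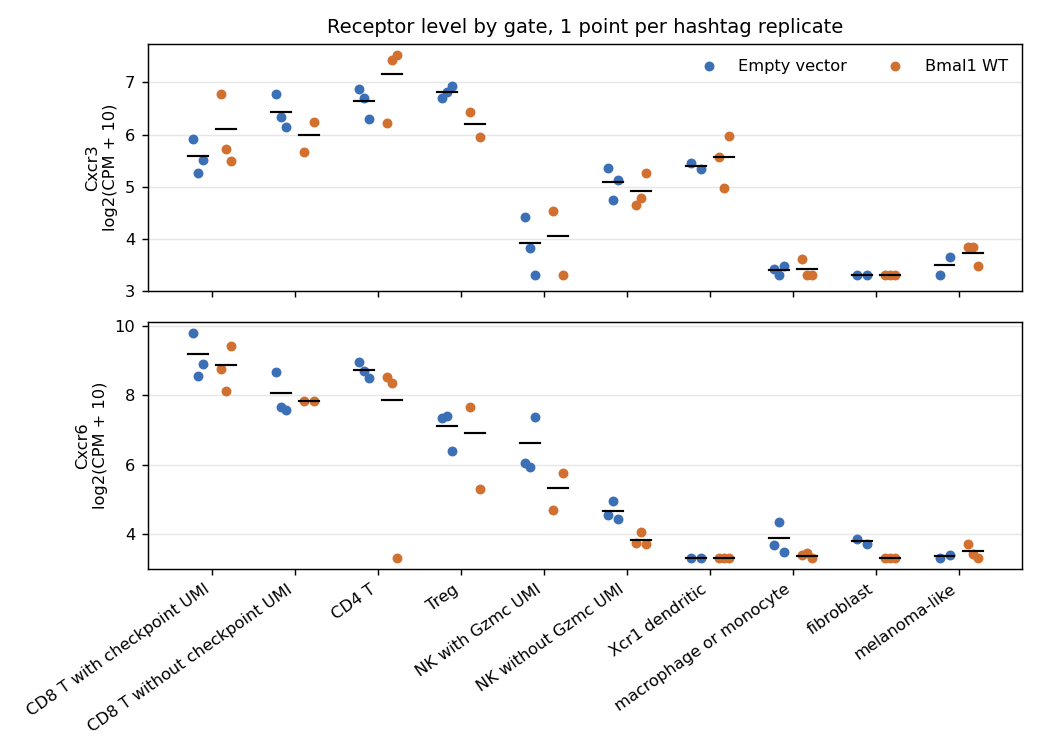
Level of Cxcr3 and Cxcr6 (y axis, log2 of CPM plus 10) by gate, with 1 point per hashtag replicate of at least 10 cells and bars at the log2 of the mean CPM plus 10. CD8 T cells with a checkpoint UMI lay between 271 and 878 CPM of Cxcr6, and NK cells without a Gzmc UMI between 3.15 and 21.0 CPM.

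Within CD8 T cells, those with a UMI of the checkpoint receptors Pdcd1, Lag3 or Havcr2 had more Cxcr6. They measured 878, 363 and 467 CPM in Empty vector h1, h7 and h8 and 417, 271 and 677 CPM in Bmal1 WT h3, h5 and h9. Those without one measured 399, 191 and 182 CPM, and 217 and 218 CPM in h3 and h5. The difference was 0.98 ± 0.17 log2 (SE, higher in 5 of 5 replicates, edgeR adjusted p = 6.05e-04), in a comparison in which 10.9% of genes were called, 6.59% higher and 4.31% lower. Cells with a checkpoint UMI were deeper, with medians of 6134 against 4484 UMIs in Empty vector and 7346 against 5787 in Bmal1 WT. Thinned to 2000 UMIs, Cxcr6 was in 67.7% against 30.7% of these cells in Empty vector and in 52.4% against 25.9% in Bmal1 WT. Cxcr3 did not pass the test there (-0.42 ± 0.32, edgeR adjusted p = 0.448).

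NK cells with a UMI of Gzmc, a granzyme gene of activated killer cells, had more Cxcr6 than other NK cells. With Gzmc they measured 56.8, 50.7 and 157 CPM in Empty vector h1, h7 and h8 and 16.1 and 44.1 CPM in Bmal1 WT h3 and h9. The other NK cells of these replicates measured 13.5, 21.0 and 11.7 CPM, and 3.35 and 3.15 CPM. The difference was 2.47 ± 0.36 log2 (SE, 5 of 5 replicates, edgeR adjusted p = 1.01e-05), where 10.1% of genes were called, 3.99% higher and 6.07% lower. Cxcr3 had the opposite sign in 5 of 5 replicates but did not pass the test (-1.25 ± 0.47, edgeR adjusted p = 0.0926). NK cells with Gzmc were deeper per cell. In Empty vector h1, for example, 18 of them held 176122 UMIs and the 324 others 1554974. The part of depth in these differences was not tested. The Bmal1 WT levels of Cxcr6 rested on few counts, 16 UMIs with Gzmc and 8 without over cells with 1 hashtag.

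The T-cell subsets with 2 or more replicates of at least 10 cells in each group were ordered by their mean level of each receptor. Mean Cxcr6 was 512 ± 225 CPM in CD8 T cells with a checkpoint UMI (SD, n = 6), 318 ± 166 in CD4 T cells (n = 6), 308 ± 164 in T cells of no named subset (n = 5), 241 ± 89.6 in CD8 T cells without one (n = 5) and 122 ± 67.4 in Foxp3 regulatory T cells (n = 5). Gamma-delta T cells, which had at least 10 cells in the Empty vector replicates only, measured 1393, 712 and 64.6 CPM in h1, h7 and h8 and are not in this order. Mean Cxcr3 was 112 ± 46.5 CPM in CD4 T cells (n = 6), 87.3 ± 23.6 in regulatory T cells (n = 5), 67.7 ± 21.2 in CD8 T cells without a checkpoint UMI (n = 5) and 48.8 ± 26.3 in those with one (n = 6). Xcr1 dendritic cells also carried Cxcr3, at 35.3 ± 11.6 CPM (n = 5), while mature dendritic cells were at 1.73 ± 4.25 CPM (n = 6). Melanoma-like cells, whose cells were deep, held 9.57% of the Cxcr3 UMIs of Bmal1 WT at a level of only 2.53 ± 1.97 CPM over both groups (n = 5). No pair of neighbours in the order of any of the 5 genes differed past the threshold in an exact two-sided sign-flip test over replicates (smallest adjusted p = 0.508 over 65 comparisons), but with 4 to 6 pairs the smallest unadjusted p that the test allows is between 0.125 and 0.0312.

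Within single T cells of Empty vector, Cxcr6 was in 57.4% of those with Cxcr3 and 55.2% of those without it, and in Bmal1 WT in 55.6% and 57.2%. In macrophages or monocytes, Cxcl10 was in 42.3% of Empty vector cells with Cxcl9 and 25.9% of those without, and in 34.0% and 15.8% in Bmal1 WT. Macrophages or monocytes with Cxcl9 were also deeper (median 8513.5 against 7149 UMIs in Empty vector and 11315 against 9820.5 in Bmal1 WT), and the part of depth in this was not tested.

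Between Empty vector and Bmal1 WT no tested member was called in any gate. Of the 5 members with values, 3 were tested in each of the macrophage or monocyte, dendritic, T and NK gates. In fibroblasts 2 were tested and in melanoma-like cells 1, and the others fell short of 100 UMIs. Of all genes, 0% were called in macrophages or monocytes, 0.211% in dendritic cells, 0% in T cells, 0.44% in NK cells, 0% in fibroblasts and 0% in melanoma-like cells by edgeR, while 888, 1201, 1410, 977, 265 and 273 genes had an unadjusted p under 0.05. DESeq2 called 6, 131, 129, 100, 14 and 4 genes. The replicate values of the groups did not overlap for 18.6%, 23.0%, 24.0%, 19.2%, 27.5% and 17.8% of genes in these gates. Of the tested members, this held only for Cxcr6, in T cells and in NK cells. Cxcr3 in dendritic cells fell short of 100 UMIs and was not tested. Over cells with 1 hashtag it was at 6.875 CPM in Empty vector (29 UMIs) and 16.98 CPM in Bmal1 WT (55 UMIs). Xcr1 dendritic cells made up 11.66% of the dendritic gate in Empty vector and 29.55% in Bmal1 WT. The part of this share in the Cxcr3 level was not tested. In sums over cells, fewer cells of one kind within a gate and less RNA per cell cannot be told apart.

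**Figure D4:**
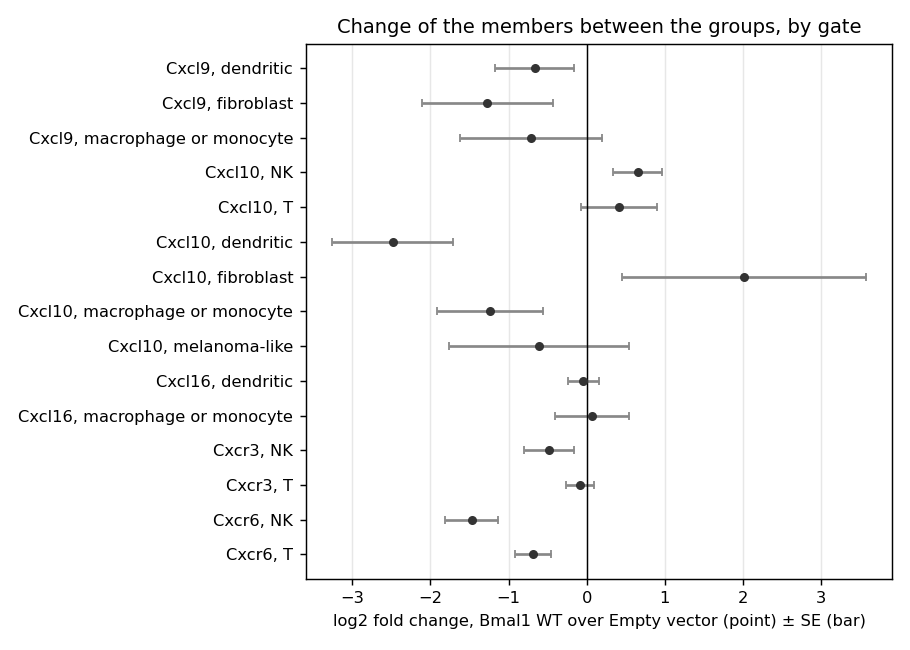
Log2 fold change of each tested member by gate (x axis, Bmal1 WT over Empty vector, point) with its SE (bar) from edgeR's quasi-likelihood fits over hashtag replicates. Cxcr6 lay below 0 in T and NK cells (-0.69 and -1.47), Cxcl16 lay near 0, and Cxcl10 had both signs.

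Cxcr6 came nearest. In NK cells the Bmal1 WT replicates (4.94 to 12.3 CPM) lay below every Empty vector replicate (17.9 to 25.2 CPM), with a log2 difference of -1.47 ± 0.34 (SE, n = 3 and 3, unadjusted p = 4.91e-04, edgeR adjusted p = 0.0812). Among NK cells without a Gzmc UMI the groups did not overlap either, at 11.7 to 21.0 CPM in Empty vector and 3.15 to 6.58 CPM in Bmal1 WT. That Bmal1 WT level rested on 8 UMIs and the Empty vector level on 71. Cxcr6 thus fell short of the 100 UMIs needed and was not tested in these cells. Among the genes that were, 15.6% did not overlap and 0% were called by edgeR, with 576 genes at an unadjusted p under 0.05. The summed level of the T-cell markers Cd3d, Cd3e and Cd3g in the NK gate moved the same way, at 20.4 to 31.8 CPM in Empty vector, with none of 3 at 0, and 7.35 to 19.1 CPM in Bmal1 WT, with 1 of 3 at 0 in h9. Trac, Trbc2 and Lck together were at 402 to 489 CPM and 347 to 377 CPM. Their part in the result was not tested.

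In T cells Cxcr6 was lower in Bmal1 WT by the same sign, -0.69 ± 0.23 log2 (SE, n = 3 and 3, unadjusted p = 0.0111, edgeR adjusted p = 0.171), and the groups were separated by 309 against 307 CPM. The change was -0.34 (adjusted p = 0.442) without Empty vector h1, and -0.32 (adjusted p = 0.773) in CD8 T cells alone. Gamma-delta T cells made up 7.98% of T cells in Empty vector, at 646 CPM of Cxcr6 from 65 cells, and 3.14% in Bmal1 WT, at 212 CPM from 10 cells, with 7.46% in Bmal1 WT h9 inside the Empty vector range of 5.58% to 11.9%. CD8 T cells with a checkpoint UMI, at 679 and 409 CPM of Cxcr6, made up 24.4% and 34.3% of T cells. The part of these shares in the result was not tested. A stricter T gate gave -0.92 (adjusted p = 0.0236). Cxcr3 in T cells differed by -0.08 ± 0.18 (edgeR adjusted p = 0.842) and in NK cells by -0.48 ± 0.32 (adjusted p = 0.521).

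Cxcl10 and Cxcl9 did not pass the test in any gate where they were tested. Cxcl10 differed by -2.49 ± 0.77 log2 in dendritic cells (SE, n = 3 and 3, unadjusted p = 0.0101, edgeR adjusted p = 0.174), where the groups overlapped, by -1.24 ± 0.68 in macrophages or monocytes (adjusted p = 0.48), and by 2.01 ± 1.56 in fibroblasts (n = 2 and 3, adjusted p = 0.719). In T cells it differed by 0.41 ± 0.49 (adjusted p = 0.687), in NK cells by 0.65 ± 0.32 (unadjusted p = 0.0562, adjusted p = 0.385) and in melanoma-like cells by -0.61 ± 1.15 (n = 2 and 3, adjusted p = 0.994). In dendritic cells of Empty vector 3 cells held 50% of the 462 UMIs. Cxcl9 differed by -0.71 ± 0.91 in macrophages or monocytes (adjusted p = 0.787), -0.67 ± 0.50 in dendritic cells (adjusted p = 0.535) and -1.27 ± 0.84 in fibroblasts (adjusted p = 0.681). Cxcl16 differed by -0.05 ± 0.20 in dendritic cells (adjusted p = 0.931) and 0.07 ± 0.48 in macrophages or monocytes (adjusted p = 0.971). Empty vector h7 had 8 fibroblasts and 4 melanoma-like cells and entered neither of those fits.

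Of 17 other genes of these axes (interferon gamma signalling, the ADAM proteases, the CXCL10-cleaving peptidase Dpp4, the chemokine Pf4, the scavenger receptor Ackr3 and G protein signalling), none of the 8 to 15 tested per gate was called between the groups. Between gates some were, and the genes named are the up to 4 with the smallest adjusted p. In T against NK cells 4 of 15 rose and 3 fell, while 30.5% of all genes were called. They included Dpp4 (4.55 ± 0.32 log2, edgeR adjusted p = 1.87e-08), Ifngr2, a subunit of the interferon gamma receptor (3.82 ± 0.35), and Tbx21, which encodes the T-bet factor that drives Cxcr3 (-1.20 ± 0.12), and Jak1, a kinase of cytokine receptors (-0.73 ± 0.098).

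In mature against other dendritic cells 7 of 13 rose and 2 fell, in a fit that called 18.2% of all genes higher and 32.7% lower. Rgs1, a regulator of G protein signalling, rose by 1.97 ± 0.18 log2, Irf1, a transcription factor induced by interferon, by 1.73 ± 0.21 and the G protein subunit Gnai3 by 1.40 ± 0.17, while Ifngr1, the ligand-binding receptor subunit, changed by -2.02 ± 0.23. In macrophages or monocytes against dendritic cells 6 of 14 rose and 4 fell, beside 20.3% and 29.1% of all genes. Adam10 rose (1.80 ± 0.12), as did Pf4 (5.37 ± 0.54), and Jak2 (-1.48 ± 0.13) and Dpp4 (-2.59 ± 0.23) were lower.

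Against fibroblasts 11 of 14 rose and none fell, beside 24.2% and 28.1% of all genes, led by Rgs1 (5.98 ± 0.48), Arrb2, which encodes a beta-arrestin (3.88 ± 0.34), Ifngr1 (1.86 ± 0.21) and Jak2 (2.08 ± 0.26). Against melanoma-like cells 11 of 15 rose and 2 fell, beside 22.7% and 46.7% of all genes, led by Rgs1 (8.60 ± 0.43), Arrb2 (4.26 ± 0.22), Ifngr1 (2.77 ± 0.15) and Pf4 (5.66 ± 0.49). In CD8 T cells with a checkpoint UMI 2 of 14 fell, near the 10.9% of all genes called there, Jak1 (-0.57 ± 0.14) and Ifngr1 (-0.56 ± 0.14). In NK cells with Gzmc 3 of 13 fell, beside 10.1% of all genes called, Jak1 (-0.84 ± 0.11), Ifngr1 (-0.61 ± 0.10) and Ifng (-0.97 ± 0.24).

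Over 17 gates taken in each library (34 points of log2 CPM plus 10, sharing library and depth), the genes most like Cxcl16 by Pearson's r were Batf3 (0.976), Bcl2a1a (0.974) and H2-Aa (0.961). Cxcl9 was most like Zfp385a (0.942), Stx3 (0.94) and Myadm (0.936), and Cxcl10 most like Daxx (0.842), Mefv (0.839) and Oas2 (0.837). Cxcr6 was most like Cd3g (0.977), Trac (0.964) and Cd3d (0.961), and Cxcr3 most like Grap (0.917), Icos (0.915) and Rab11fip4 (0.913). Cd3g and Cd3d are markers that define the T gate, so any gene found mainly in T cells tends to follow them over these points. Among the members, r was 0.857 between Cxcl9 and Cxcl16, 0.846 between the receptors and 0.474 between Cxcl9 and Cxcl10.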

How the data were processed

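The authors deposited raw UMI counts for genes and hashtags. The file headers name Cell Ranger 6.1.2 and the submitters' processing notes name mm10, while aligner settings and annotation are not given in the sources used. What is labelled Bmal1 bHLH held the same values as Bmal1 WT in 3 of 3 parts, so Bmal1 bHLH was not analysed here. The members, gene lists and tests were chosen with earlier results of these data known.

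Barcodes with at least 200 genes and at most 20% mitochondrial UMIs were kept. Hashtags were called with a 2-component Gaussian mixture (scikit-learn 1.9.0), and cells with exactly 1 hashtag formed the replicates. A gate needed 2 marker UMIs and 0.7 of all lineage UMIs. No doublet caller was run, but barcodes with several hashtags entered no replicate, and those of several lineages (269 in Empty vector and 109 in Bmal1 WT) entered no gate. Values over all cells of a library, such as source shares and percentages of cells, did include barcodes with several hashtags (368 in Empty vector and 105 in Bmal1 WT). UMIs were summed per replicate and gate (at least 10 cells), and genes with at least 100 UMIs were tested with edgeR 4.0.16 (quasi-likelihood, total-UMI scaling, Benjamini-Hochberg adjustment over all genes, threshold 0.05) in R 4.3.3, with the replicate as a block where gates of the same replicates were compared. The block pairs cells of the same hashtag. Some of the fits were tested on simulated counts that had the same spread between replicates for every gene. Those counts do not cover the wider spread of Cxcl9 and Cxcl10. The text names all members, up to 4 called pathway genes per fit by adjusted p, and the 3 genes most like each member. Alternatives were TMM scaling, DESeq2 1.42.0, other filters and gates, other hashtag calls and leaving out each replicate. CD8 T cells alone and NK cells without a Gzmc UMI alone were added after the data were seen.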

Additional observations from a re-analysis of the deposited data

How the results depend on the processing

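The numbers of genes called between Empty vector and Bmal1 WT moved with the tool and the filter. In macrophages or monocytes the number was 0, and DESeq2 gave 6 and no filter on low counts 171. In dendritic cells it was 15, and DESeq2 gave 131, no filter 396 and a stricter gate 0. In T cells it was 0, and DESeq2 gave 129, no filter 538 and a stricter gate 167. In NK cells it was 32, and DESeq2 gave 100, no filter 218 and NK cells without a Gzmc UMI alone 0. In fibroblasts it was 0, and DESeq2 gave 14, no filter 197 and a stricter gate 1. In melanoma-like cells it was 0, and DESeq2 gave 4 and no filter 105. Leaving out each replicate gave 0 to 0 in dendritic cells, 0 to 116 in T cells (116 without Empty vector h8), 0 to 163 in NK cells (0 without Empty vector h1 and 163 without Empty vector h7) and 0 to 6 in fibroblasts (6 without Empty vector h1).

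Between gates, no filter gave 6186 calls for macrophages or monocytes against fibroblasts (4104 with it). CD8 T cells with against without a checkpoint UMI had 569 calls, with 279 under DESeq2, 276 under a stricter gate and 246 to 536 when a replicate was left out (246 without Empty vector h8, 350 without Bmal1 WT h5). NK cells with against without Gzmc had 716, with 362 under DESeq2 and 343 to 778 when a replicate was left out (343 without Bmal1 WT h3). The cause of these moves was not tested.

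Of member changes between groups, 174 settings kept direction and side of the threshold, 7 gained a call and 10 turned sign. Without a filter, Cxcl10 in macrophages or monocytes (adjusted p = 0.0375) and dendritic cells (2.33e-04), Cxcr6 in T (1.10e-04) and NK cells (8.83e-03), and Cxcl9 (0.0225) and Cxcl10 (3.38e-05) in fibroblasts were called. Cxcl16 in dendritic cells turned to 0.048 under TMM scaling and 0.064 under DESeq2, and ran from -0.19 to 0.13 when a replicate was left out. In macrophages or monocytes it ran from -0.79 to 0.41. Cxcl10 in T cells turned to -0.42 under a stricter gate and ran from -0.71 to 0.96 without a replicate, and in melanoma-like cells it ran from -2.02 to 2.94. Cxcr3 turned to 0.030 in CD8 T cells only. Of changes between gates, 199 settings kept their call, 4 gained one and 11 lost one. Omitting the replicate block, which pairs gates of the same hashtag, ended the calls of Cxcl10 in macrophages or monocytes against fibroblasts (1.14) and in T against NK cells (0.72), and of members it changed no other call. Cxcr3 in NK cells with Gzmc was called without Bmal1 WT h3 (-2.41, adjusted p = 0.0284). Cxcl10 was lower in CD8 T cells with than without a checkpoint UMI (-1.76, edgeR adjusted p = 0.0545), but higher in 2 of 5 replicates. It was called without Empty vector h1 (-3.21, adjusted p = 8.77e-04). In Bmal1 WT, 1 cell held 100 of the 142 Cxcl10 UMIs of CD8 T cells without a checkpoint UMI. Between the groups, no paired analysis was possible because they share no hashtag. Depth limits the detection of Cxcr3, which was in 28.8% and 36.8% of T cells but in 13.1% and 12.9% at 2000 UMIs per cell.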
